A study of Rattus norvegicus with 36 samples.

Results

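The 9 genes described here are immediate early genes, which neurons transcribe within minutes of synaptic activity without needing new protein synthesis. They were chosen by name, by a rule that uses none of their values, although earlier results of these data were known. They are 9 of the 23965 genes in a table of raw read counts per gene from rat striatum. *Fos* (ENSRNOG00000008015), *Fosb* (ENSRNOG00000046667) and *Junb* (ENSRNOG00000042838) encode subunits of the AP-1 transcription factor. *Egr1* (ENSRNOG00000019422) and *Egr2* (ENSRNOG00000000640) encode zinc finger transcription factors, and *Nr4a1* (ENSRNOG00000007607) encodes an orphan nuclear receptor. The other members are effectors: *Arc* (ENSRNOG00000043465), which acts at synapses in the internalisation of AMPA receptors, *Dusp1* (ENSRNOG00000003977), a phosphatase that inactivates MAP kinases, and *Ccn1* (ENSRNOG00000014350), a secreted matricellular protein. The count table lists genes by Ensembl identifier only, and the symbols came with the list of members.

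Striatal RNA from 36 male Sprague Dawley rats aged 2 months was sequenced, 6 rats in each of 6 groups. Wildtype (WT) rats and BACHD transgenic (TG) rats, which carry full-length mutant human huntingtin on a bacterial artificial chromosome (BAC), were raised in a standard environment (WT_SE, TG_SE), in an enriched environment with larger cages, more companions and toys (WT_EE, TG_EE), or with daily separation of the pups from the dam (WT_MS, TG_MS, written ELS in the labels). In BACHD rats, bred from heterozygous transgenic males and wildtype females, the human gene is added to the rat's own huntingtin alleles, which are not mutated. Whole litters of mixed genotype were allotted to an environment, and the labels do not give the litter, so littermates cannot be told apart here. Total counts per library ranged from 9895073 to 19284439, and library numbers run from 1 to 36, with 1 rat of every group in each run of 6 consecutive numbers. Whether the dissections were pure striatum could not be checked against striatal markers, because identifiers were not paired with symbols.

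In resting neurons these genes are kept low, and calcium entry and MAP kinase signalling switch them on through factors already present, such as CREB at cAMP response elements and serum response factor at CArG boxes. In the striatum, dopamine, glutamate, novelty and handling are known to induce them in medium spiny neurons, and their mRNAs decay quickly. A single brain sample therefore holds the level at 1 moment. All levels below are counts scaled to library size (CPM) after TMM normalization, which scales libraries by the bulk of their genes. In bulk tissue, fewer cells of a type and less RNA per cell cannot be told apart. CPM is not corrected for gene length, so levels are compared between rats and not between genes.

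The start-site sequences of 7 of the 9 members matched by symbol in RefSeq (build GRCr8) and are shown because the members that varied together can be compared there. Each stretch covers the 140 bases from 180 to 41 bases before the annotated start, 5′ to 3′ on the strand of the gene. Capitals mark the cAMP response element TGACGTCA, its core TGACG on either strand (CGTCA on the opposite one), and the CArG box. *Egr1* lies at chr18:26736898-26737037 (plus strand), *Egr2* at chr20:21054482-21054621 (minus strand), *Nr4a1* at chr7:134259958-134260097 (plus strand) and *Dusp1* at chr10:17184673-17184812 (plus strand). *Junb* lies at chr19:40080946-40081085 (plus strand), *Ccn1* at chr2:237225730-237225869 (minus strand) and *Fosb* at chr1:88089225-88089364 (minus strand).
*Egr1*: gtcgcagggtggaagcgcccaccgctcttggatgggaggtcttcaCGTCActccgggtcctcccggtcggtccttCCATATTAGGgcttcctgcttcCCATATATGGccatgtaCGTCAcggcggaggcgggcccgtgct
*Egr2*: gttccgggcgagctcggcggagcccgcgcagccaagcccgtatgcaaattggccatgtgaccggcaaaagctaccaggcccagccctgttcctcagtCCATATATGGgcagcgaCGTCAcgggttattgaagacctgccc
*Nr4a1*: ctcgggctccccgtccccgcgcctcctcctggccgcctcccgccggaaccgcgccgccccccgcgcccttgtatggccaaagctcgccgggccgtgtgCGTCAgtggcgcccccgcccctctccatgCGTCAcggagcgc
*Dusp1*: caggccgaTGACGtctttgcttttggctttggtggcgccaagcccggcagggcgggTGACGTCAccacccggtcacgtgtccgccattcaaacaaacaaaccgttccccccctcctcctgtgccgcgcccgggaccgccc
*Junb*: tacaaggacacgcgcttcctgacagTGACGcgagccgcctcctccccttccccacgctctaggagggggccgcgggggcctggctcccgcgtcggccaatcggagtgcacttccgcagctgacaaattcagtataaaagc
*Ccn1*: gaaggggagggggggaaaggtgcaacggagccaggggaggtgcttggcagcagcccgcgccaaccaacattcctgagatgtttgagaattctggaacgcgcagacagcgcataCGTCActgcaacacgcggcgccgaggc
*Fosb*: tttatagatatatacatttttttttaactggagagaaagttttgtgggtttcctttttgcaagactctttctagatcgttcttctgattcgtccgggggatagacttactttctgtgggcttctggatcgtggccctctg

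The core TGACG was found in the windows from 250 bases before to 50 bases after the start of 6 of these 7 members, against 21.2% of 33469 annotated promoters. *Nr4a1* held 4 copies, 246, 226, 82 and 53 bases before its start, of which the first pair lies outside the stretch shown. The whole element TGACGTCA, present in 1.83% of all promoters and overlapping the core, was found in *Dusp1* alone among the 7, 124 bases before the start. A CArG box was present in 1.64% of all promoters and in *Egr1* and *Egr2*. Both held CCATATATGG 83 bases before the start and CGTCA 66 bases before it, and *Egr1* had a further box, CCATATTAGG, 105 bases before its start. The AP-1 letters TGANTCA, present in 7.33% of all promoters, matched no member, and the EGR letters GCGNGGGCG, present in 4.98%, matched *Nr4a1* alone. In the *Fosb* window none of the 5 motifs was found, which says only that these letters are not in it. A match is a description of sequence and was not tied to a measured binding.

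The members varied far more between rats of the same group than most genes did. *Arc* ranged from 22.9 CPM in TG_SE replicate 2 to 125 CPM in WT_MS replicate 5, a 5.47-fold range over the 36 libraries. *Nr4a1* ranged 6.67-fold, from 10.7 to 71.2 CPM, *Junb* 5.48-fold, from 4.78 to 26.2 CPM, and *Fos* 6.72-fold, from 1.45 to 9.72 CPM. *Egr2* had the widest range of the 9, 17.4-fold from 0.833 to 14.5 CPM, on raw counts of 10 to 163. *Fosb* (2.95-fold), *Egr1* (2.57-fold) and *Dusp1* (2.40-fold) had narrower ranges. *Ccn1* had only 3 to 18 counts per library, so that counting error alone corresponded to 89.1% of its variance within groups.

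The standard deviation (SD) of log2 CPM within groups, pooled over the 36 libraries, was 0.79 for *Nr4a1*, 0.70 for *Arc* and 0.57 for *Junb*. It was 0.37 for *Fosb* and 0.35 for both *Egr1* and *Dusp1*. The median over the 12657 genes with a mean count of at least 50 was 0.16. *Nr4a1* exceeded 99.6% of these genes, *Arc* 99.4%, *Junb* 98.8%, *Fosb* 95.8%, and both *Egr1* and *Dusp1* about 95%. *Fos* (SD 0.75) and *Egr2* (SD 0.79), with mean counts of 46.2 and 47.5, fell just below that minimum, and counting error made up about 10% of their variance (10.3% and 10.5%). The biological coefficient of variation was estimated with 1 mean per group and without surrogate variables. It was 50.1% for *Nr4a1*, where the trend for genes of its abundance was 10.8%, 45.3% against 9.76% for *Arc*, and 35.6% against 14.8% for *Junb*. It was 21.6% for *Fosb*, close to its trend of 18.4%. Genotype and environment together held 13.7% (*Fosb*) to 21.4% (*Nr4a1*) of the variance of the 6 members above the minimum, and 15.1% at the median over all tested genes.

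The levels by group are taken in order of role, beginning with AP-1. *Fos* had a lowest, median and highest value of 1.49, 2.07 and 4.19 CPM in WT_SE and 1.78, 2.91 and 8.14 CPM in TG_SE. In the enriched environment it had 1.45, 3.49 and 7.29 CPM in WT_EE and 2.03, 2.57 and 7.96 CPM in TG_EE. After maternal separation it had 1.53, 3.65 and 9.72 CPM in WT_MS and 2.21, 3.73 and 4.84 CPM in TG_MS. All 6 groups overlapped, and the 4 highest libraries came from 4 different groups. *Junb* had medians of 11.5 CPM in WT_SE, 9.19 in TG_SE, 13.6 in WT_EE, 12.7 in TG_EE, 17.2 in WT_MS and 12.4 in TG_MS, with overlapping ranges. Some *Fosb* transcripts encode deltaFosB, a stable protein known for accumulating under repeated stimulation, and counts per gene do not separate them. *Fosb* had a median of 4.58 CPM in WT_SE, the lowest, and of 5.83 CPM in TG_MS, second to that of WT_EE, and every group overlapped every other.

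*Egr1*, the most deeply counted member with 650 to 1686 reads per library, had 62.3, 69.7 and 109 CPM (lowest, median and highest) in WT_SE, 60.9, 82.3 and 135 in TG_SE and 66.4, 85.0 and 115 in WT_EE. The values were 58.4, 81.8 and 125 CPM in TG_EE, 69.2, 105 and 150 in WT_MS and 61.2, 93.1 and 104 in TG_MS. The order of the medians ran from WT_SE to WT_MS, and all neighbours in it overlapped. *Nr4a1* had 14.2, 19.5 and 32.5 CPM in WT_SE and 10.7, 17.7 and 57.1 CPM in TG_SE. It had 17.7, 28.2 and 66.3 CPM in WT_EE, 10.7, 17.5 and 57.6 in TG_EE, 19.3, 41.9 and 71.2 in WT_MS and 15.1, 25.1 and 44.4 in TG_MS. Each of these groups held at least 1 library below 20 CPM, and all but WT_SE held at least 1 above 40 CPM.

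*Arc* values left a gap between libraries. Its lowest, median and highest values were 31.7, 34.9 and 51.7 CPM in WT_SE, 22.9, 28.9 and 110 in TG_SE, and 33.9, 56.2 and 93.5 in WT_EE. They were 31.1, 35.8 and 102 CPM in TG_EE, 37.4, 77.8 and 125 in WT_MS, and 29.2, 35.3 and 89.0 in TG_MS. In 26 libraries *Arc* lay between 22.9 and 54.8 CPM, no library lay between 54.8 and 76.5 CPM, and 10 libraries lay at 76.5 CPM or above. Of those 10, 3 were WT_EE, 3 WT_MS, 2 TG_SE, 1 TG_EE and 1 TG_MS, and none was WT_SE. *Dusp1* had medians from 13.8 CPM (TG_EE) to 19.1 CPM (WT_MS) and *Ccn1* from 0.496 CPM (TG_MS) to 0.873 CPM (WT_MS), again with overlapping groups.

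**Figure D1:**
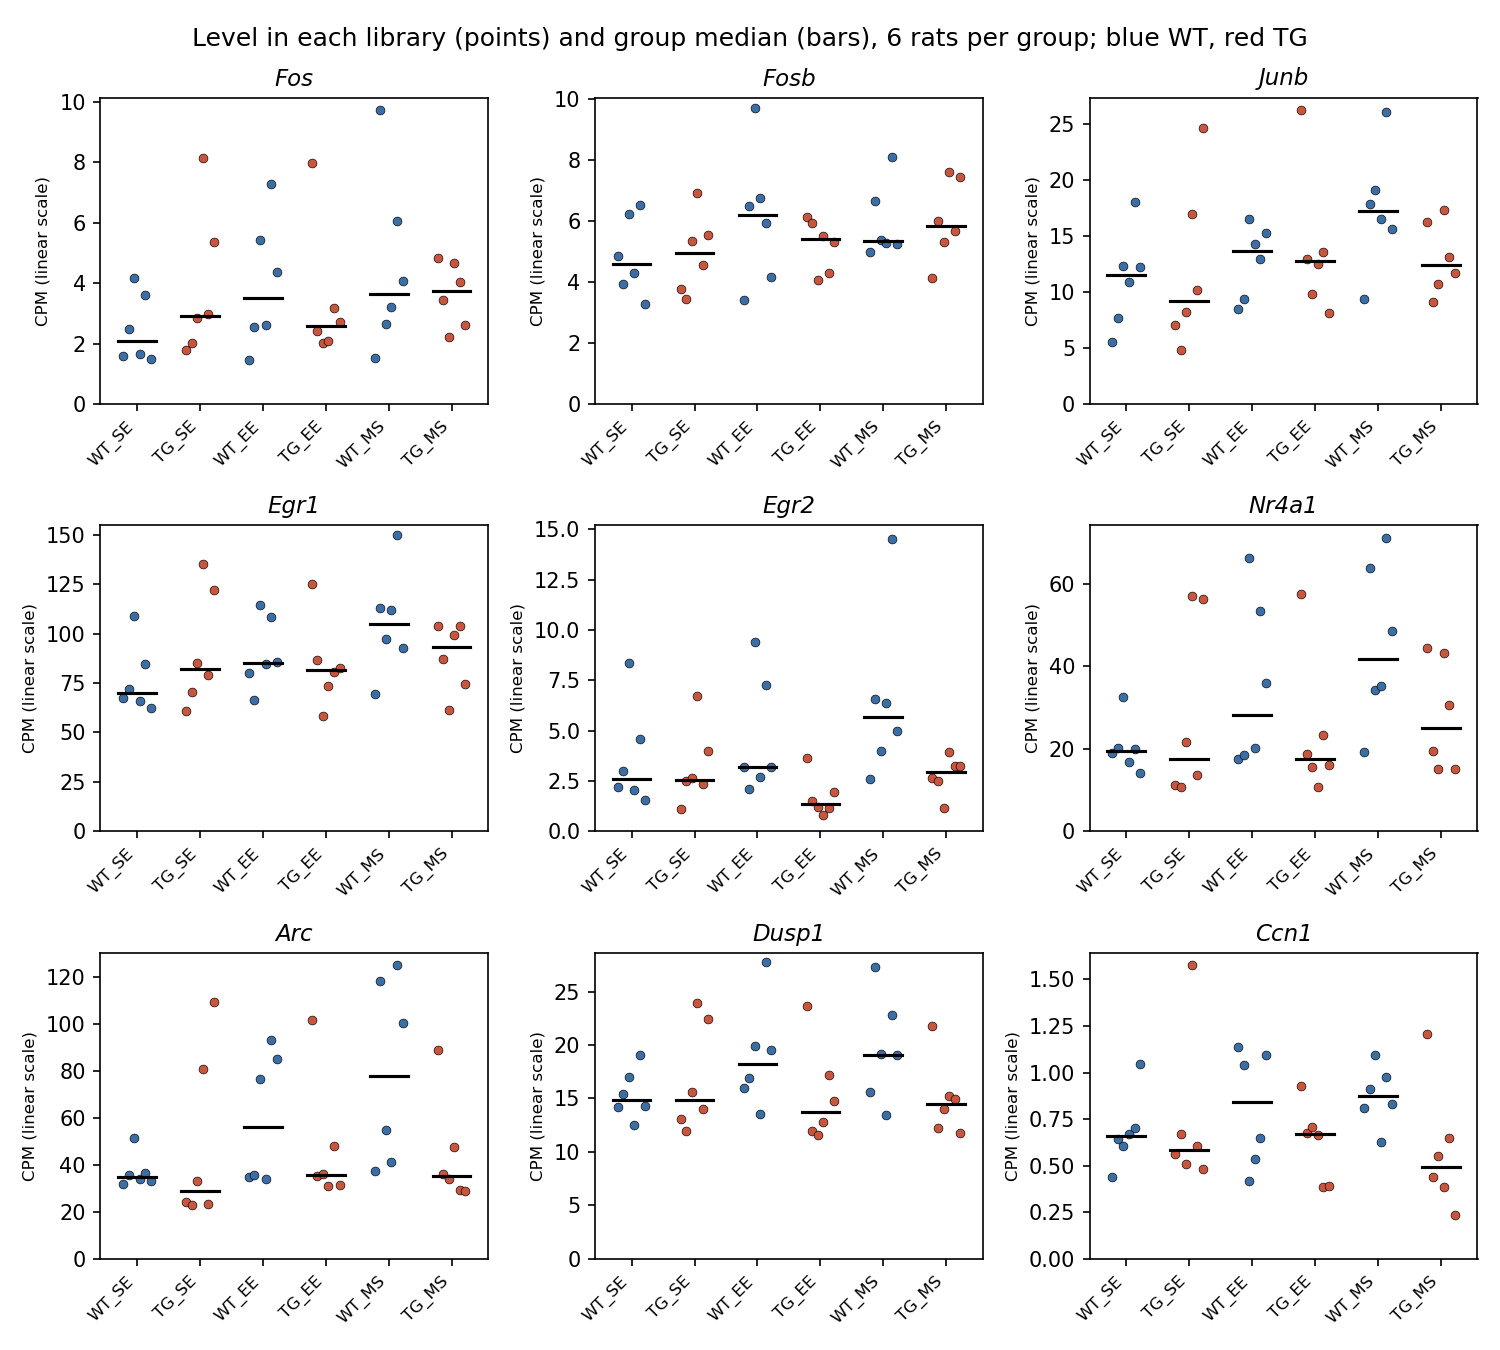
CPM of the 9 members in the 36 libraries (linear axes starting at 0), with 1 point per rat and a bar at the median of each group of 6; WT is blue and TG red. All groups overlap for *Fos*, *Fosb*, *Junb*, *Egr1*, *Nr4a1*, *Arc* and *Dusp1*, and the WT_SE rats stay at or below 51.7 CPM for *Arc* while every other group has at least 1 rat at 76.5 CPM or above.

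The first question was whether the transgene changed these genes in any environment. A quasi-likelihood model (edgeR) of all 36 libraries, with 5 surrogate variables, was used, and calls required a p of 0.1 or less after Benjamini-Hochberg adjustment over all tested genes and a log2 fold change of 0.3 or more in either direction. Of the 6 members with a mean count of at least 50, 0 were called in TG_SE/WT_SE and 0 had an unadjusted p under 0.05, where 0.213% and 6.16% of the 12657 genes did. In TG_EE/WT_EE 0 of 6 were called and 1 had an unadjusted p under 0.05 (background 0.411% and 11.4%), and in TG_MS/WT_MS 0 and 0 (0.134% and 7.36%). DESeq2, with or without surrogate variables, also called 0 of 6 in each. For the 6 members the median log2 fold change between genotypes was 0.12 under SE, -0.34 under EE and -0.32 under MS. The median over all genes, which normalization holds near 0, was within 0.01 of 0 in each. The medians of the members were not tested as a group, and the members varied together, so they are not 6 independent values.

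The member below 0.05 was *Dusp1*, with 13.5 to 27.8 CPM in WT_EE against 11.6 to 23.7 CPM in TG_EE, and a log2 fold change of -0.44 (standard error 0.21, 95% confidence interval -0.86 to -0.01, edgeR unadjusted p = 0.0441, adjusted p = 0.414). In the same comparison the log2 fold changes of *Nr4a1* and *Arc* were -0.84 (0.48, adjusted p = 0.52) and -0.67 (0.43, adjusted p = 0.586). After maternal separation *Arc* had -0.77 (0.41, adjusted p = 0.725), *Nr4a1* -0.53 (0.45, adjusted p = 0.88) and *Dusp1* -0.34 (0.22, adjusted p = 0.807) by edgeR. None of these passed the test, and the 95% interval for *Arc* in TG_MS/WT_MS, -1.61 to 0.06, includes 0. Without surrogate variables *Arc* had -0.85 in TG_MS/WT_MS (95% interval -1.63 to -0.07, edgeR unadjusted p = 0.0337, adjusted p = 0.931). In that fit 1 of 6 members was under 0.05 in TG_MS/WT_MS, where 658 of 12657 genes were. In TG_EE/WT_EE 0 of 6 were, beside 1084 genes. Both counts of members were the same with 1 or 2 surrogate variables, and none was called.

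Averaged over the 3 environments (TG/WT), 0 of 6 members were called and 0 had an unadjusted p under 0.05, against 0.577% and 15.3% of all genes. The log2 fold changes were -0.41 for *Arc* (standard error 0.24), -0.40 for *Nr4a1* (0.27), -0.24 for *Dusp1* (0.12), -0.13 for *Junb* (0.13), and -0.07 for both *Egr1* (0.11) and *Fosb* (0.11). The lowest adjusted p among them was 0.353, for *Dusp1*. *Fos* had -0.18 (0.27, edgeR adjusted p = 0.838) and *Ccn1* -0.31 (0.21, adjusted p = 0.652), from fits with a minimum mean count of 10 and with no minimum.

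*Egr2* was the member with the largest genotype difference. Known in the nervous system for its roles in activity-induced transcription and in myelinating Schwann cells, it had a lowest, median and highest value of 1.57, 2.59 and 8.37 CPM in WT_SE against 1.12, 2.57 and 6.74 in TG_SE. In EE it had 2.08, 3.21 and 9.42 CPM in WT rats against 0.833, 1.37 and 3.63 in TG rats, and in MS 2.62, 5.68 and 14.5 CPM against 1.18, 2.95 and 3.96. Over all environments the mean was 4.93 ± 3.34 CPM in WT (SD, n = 18) and 2.58 ± 1.45 CPM in TG (n = 18). The groups overlapped in each environment, and the medians in SE were nearly equal.

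*Egr2* lay below the minimum mean count of 50 and was tested among the 15454 genes with a mean count of at least 10. There it was called in TG/WT, with a log2 fold change of -0.91 (standard error 0.28, 95% confidence interval -1.49 to -0.33, edgeR unadjusted p = 0.00294, adjusted p = 0.0896), a level in TG 0.531 times that in WT. It was 1 of 8 members tested, where 0.809% of genes were called and 13.7% had an unadjusted p under 0.05. By environment TG rats differed from WT rats by -0.51 under SE (edgeR adjusted p = 0.964), -1.16 under EE (adjusted p = 0.338) and -1.07 under MS (adjusted p = 0.727), and no single environment passed. The difference of these fold changes from SE was -0.65 for EE (standard error 0.74, adjusted p = 0.999) and -0.56 for MS (0.67, adjusted p = 1.0), so a dependence on environment was not shown. *Egr2* was called in TG/WT under 8 of 8 other settings at this minimum, with log2 fold changes from -0.98 to -0.84. Among these settings, dropping the minimum fold change could not have removed the call. With each library left out in turn it was lower in TG in 36 of 36 fits, from -1.12 to -0.78, but the call held in 14 and was lost in 22, with adjusted p up to 0.241 without WT_MS replicate 2.

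**Figure D2:**
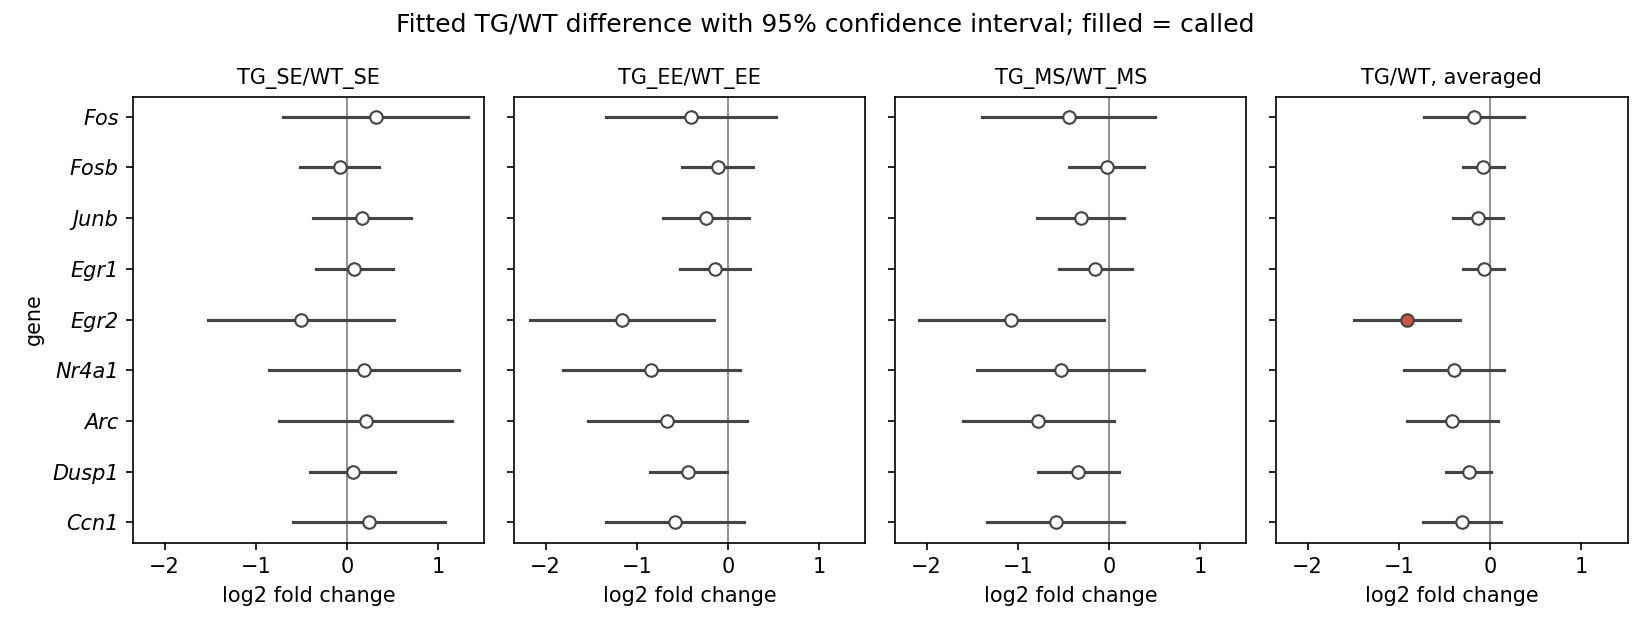
Log2 fold change of each member between TG and WT rats in SE, EE and MS and averaged over them (points), with 95% confidence intervals (lines), from the fit whose minimum count the gene passed; a filled point marks a called gene. The averaged *Egr2* difference of -0.91 is the only filled point, and the intervals of the other members in that panel include 0.

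Because *Egr1* and *Egr2* rose and fell together between rats, their ratio within a library was examined, a choice made after the *Egr2* values were seen and not independent of them. *Egr2* had a median of 4.17 counts per 100 counts of *Egr1* in WT rats (range 2.58 to 9.69, n = 18) and 2.91 in TG rats (1.19 to 5.01, n = 18). Averaged over environments the ratio in TG was 0.568 times that in WT, a log2 difference of -0.82 (two-sided p = 5.0e-05, 100000 permutations of genotype within environment). *Egr2* alone, permuted the same way, differed by -0.86 (permutation p = 0.0037). In EE the ranges did not overlap, with 1.19 to 2.94 in TG and 3.19 to 8.25 in WT (log2 difference -1.25, exact permutation p = 0.0022, the smallest that 6 against 6 can give). In MS the ranges of 2.00 to 4.40 in TG and 3.84 to 9.69 in WT overlapped slightly (-0.84, exact p = 0.011), and in SE 1.92 to 5.01 and 2.58 to 7.73 overlapped widely (-0.36, exact p = 0.27). Whether the genotype difference of the ratio changed with the environment was not tested.

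The same ratio to *Egr1* differed less between genotypes for every other member. The log2 difference was -0.35 for *Nr4a1*, -0.30 for both *Arc* and *Ccn1*, -0.16 for *Dusp1*, -0.08 for *Junb*, -0.00 for *Fosb* and 0.10 for *Fos*. *Egr2* relative to *Fos* was lower in TG by a log2 difference of -0.92 (permutation p = 1.0e-05, the smallest that 100000 permutations can give). Relative to *Nr4a1* it was lower by -0.47 (permutation p = 0.0081). Both ratios use the same *Egr2* counts that singled this gene out, so their p are not independent evidence for the difference. Permutation p were computed for *Egr2* only. With each library left out in turn the log2 difference of the ratio to *Egr1* stayed between -0.86 and -0.76, with permutation p of at most 0.0004.

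**Figure D3:**
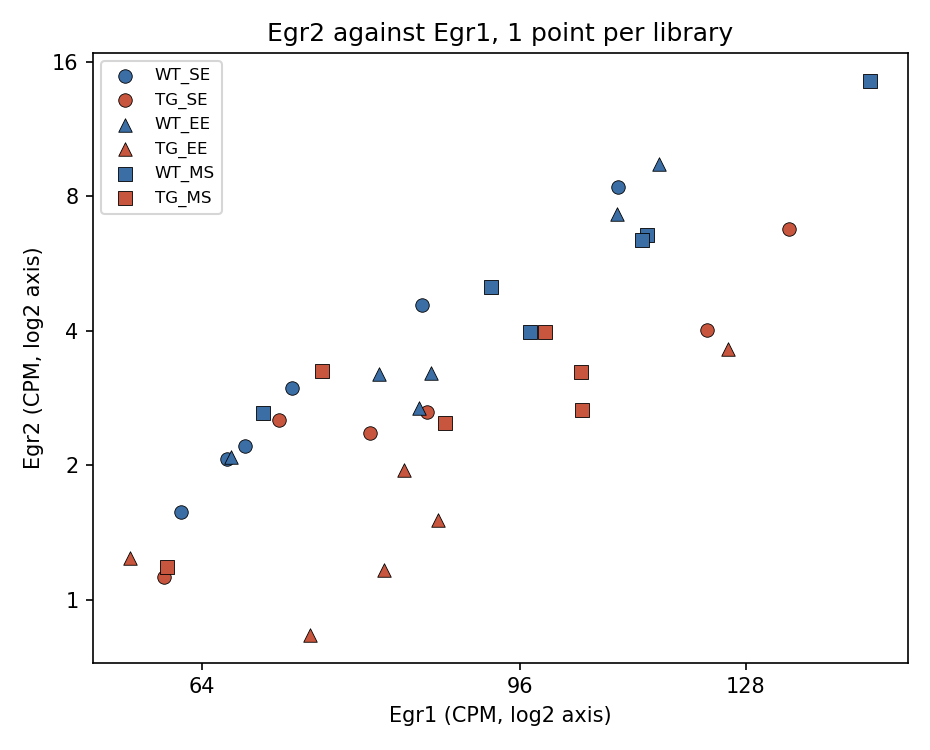
*Egr2* against *Egr1* in CPM (log2 axes) for the 36 libraries, with WT in blue and TG in red and circles, triangles and squares for SE, EE and MS. Both genes rise together. The ratio of *Egr2* to *Egr1* has its lowest median in TG_EE, whose range overlaps those of TG_SE and TG_MS.

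The second question was whether the environment changed these genes. In WT_EE/WT_SE 0 of 6 members were called and 0 had an unadjusted p under 0.05 (0.0% and 6.01% of all genes), and in TG_EE/TG_SE 0 and 0 (0.0% and 3.05%). After maternal separation WT_MS/WT_SE gave 0 and 0 (0.0% and 6.15%) and TG_MS/TG_SE 0 and 0 (0.0% and 4.13%). Averaged over genotypes, 0 of 6 members were called and 0 had an unadjusted p under 0.05 in EE/SE (0.0079% and 4.8%), MS/SE (0.0% and 6.28%) and EE/MS (0.0% and 5.73%). DESeq2 with or without surrogate variables called 0 members in all of these. *Fos* and *Egr2* were tested at a minimum mean count of 10 and *Ccn1* with no minimum. There too, edgeR with 5 surrogate variables called 0 members in each comparison, and 0 had an unadjusted p under 0.05. Between 559 and 940 of 15454 genes had such a p at the minimum of 10, and 1221 to 1487 of 23965 with no minimum. The median log2 fold change of the 6 members was 0.25 in WT_EE/WT_SE and 0.28 in WT_MS/WT_SE, and -0.20 and -0.10 in the matching comparisons of TG rats. These comparisons share the WT_SE or the TG_SE rats, and the medians were not tested as a group.

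In WT rats *Arc* had a median of 34.9 CPM in WT_SE, 56.2 in WT_EE and 77.8 in WT_MS. The log2 fold change of WT_MS/WT_SE was 0.76 (standard error 0.44, 95% confidence interval -0.13 to 1.66, edgeR adjusted p = 0.839) for *Arc* and 0.64 (0.49, adjusted p = 0.892) for *Nr4a1*. That of WT_EE/WT_SE was 0.61 (0.41, adjusted p = 0.874) and 0.60 (0.46, adjusted p = 0.901) by edgeR. Without surrogate variables the edgeR values of WT_MS/WT_SE were larger, 1.10 for *Arc* (unadjusted p = 0.00758, adjusted p = 0.41) and 1.15 for *Nr4a1* (unadjusted p = 0.011, adjusted p = 0.456). In that fit 4 of 6 members had an unadjusted p under 0.05 in edgeR, where 8.09% of all genes did. The members varied together between rats, so these 4 are not independent results. The count was also 4 with 1 surrogate variable, with runs of library numbers as covariate, and by DESeq2 without surrogate variables. It was 0 with 2 or 5 surrogate variables in edgeR, and 0 by DESeq2 with surrogate variables. None was called in any of these fits. For *Fos* and *Egr2* the log2 fold changes of WT_MS/WT_SE were 0.63 (edgeR adjusted p = 0.931) and 0.43 (adjusted p = 0.964). Without surrogate variables they were 0.86 (edgeR unadjusted p = 0.0448, adjusted p = 0.562) and 0.84 (unadjusted p = 0.0514, adjusted p = 0.579).

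The interaction tests whether the TG/WT difference changed with the environment. For EE against SE 0 of 6 members were called and 0 had an unadjusted p under 0.05 (0.0% and 4.02% of all genes), and for MS against SE likewise 0 and 0 (0.0% and 4.2%). The interaction was -0.87 for *Arc* (standard error 0.66) and -1.02 for *Nr4a1* (0.73) with EE, and -0.98 (0.60) and -0.71 (0.66) with MS, on the log2 scale. All adjusted p were at least 0.999 in edgeR. The medians over the 6 members, -0.45 and -0.44, lay below the medians over all genes, -0.01 and 0.00, and were not tested as a group.

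Libraries high for 1 member tended to be high for most of the others. After the mean of each group was subtracted from log2 CPM, the mean Pearson's r over the 15 pairs of the 6 tested members was 0.67 across the 36 libraries. The highest pair was *Nr4a1* with *Arc*, with r = 0.91 and Spearman's rho = 0.88, followed by *Egr1* with *Egr2* (0.90 and 0.87), *Fos* with *Nr4a1* (0.90 and 0.90), *Egr1* with *Nr4a1* (0.89 and 0.88) and *Arc* with *Dusp1* (0.88 and 0.84). Each of these had a permutation p of 1.0e-05, the smallest that 100000 permutations within groups can give (2.2e-05 adjusted by Benjamini-Hochberg over the 36 pairs of 9 members). Without the 2 libraries farthest from the median of the first-named gene, r was 0.89, 0.88, 0.90, 0.85 and 0.85.

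Among the 7 members other than *Fosb* and *Ccn1*, all 21 pairs had r between 0.58 and 0.91, with adjusted permutation p of at most 0.0015 for r and 0.0041 for rho. Leaving out the 2 farthest libraries gave 0.60 to 0.90. With all 36 libraries kept, removing the mean of each run of 6 consecutive libraries besides the group means gave 0.56 to 0.93. *Fosb* was less tied to the rest, with r from 0.32 (*Dusp1*) to 0.64 (*Egr2*), and its pairs with *Arc* and *Dusp1* did not pass (adjusted permutation p = 0.095 and 0.097). *Ccn1*, whose counts were close to the counting floor, had r from -0.31 to 0.35 with the other 8, and 0 of its 8 pairs passed. The mean r over the 15 pairs was 0.61 within WT rats and 0.71 within TG rats, a difference that was not tested.

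**Figure D4:**
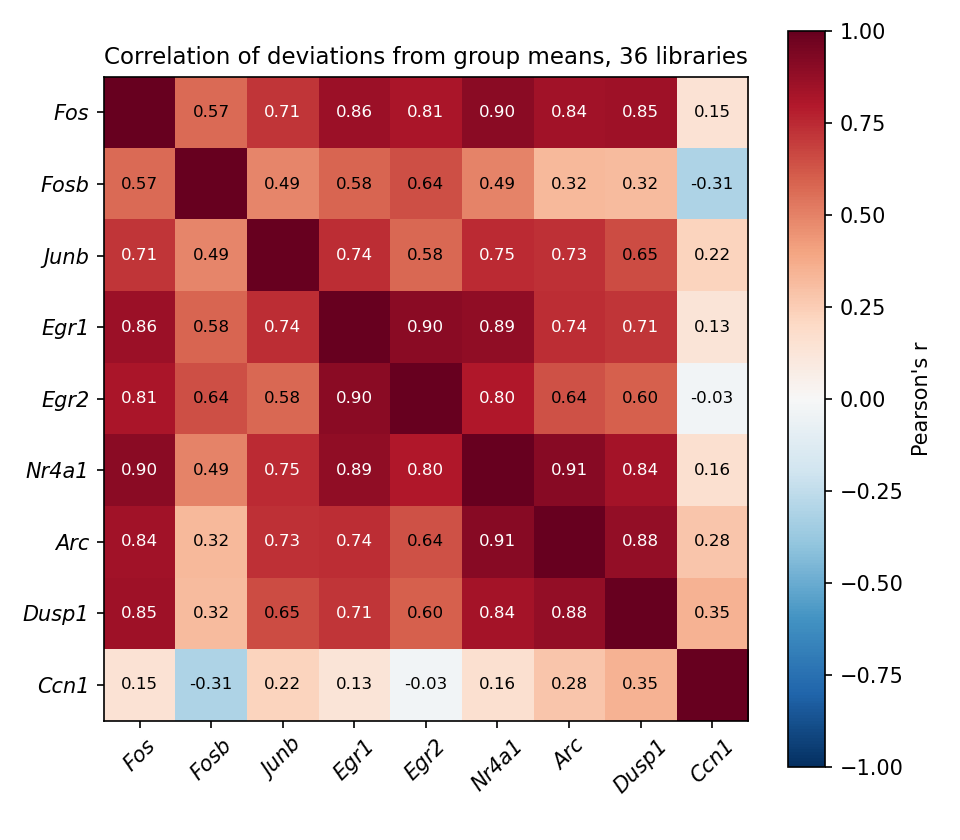
Pearson's r for each pair of the 9 members over 36 libraries, after subtraction of group means from log2 CPM, on a colour scale from -1 to 1. The block from *Fos* to *Dusp1*, with *Fosb* as the paler row, holds r of 0.58 to 0.91 outside *Fosb*, and the *Ccn1* row stays between -0.31 and 0.35.

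The correlation was also computed within the libraries on either side of the gap in *Arc*, on log2 CPM without subtraction of group means. Within the 26, the mean r over the 15 pairs was 0.50 (range 0.13 to 0.78), and within the 10 it was 0.44. Both lay below the 0.67 over all libraries, but that value was computed after subtraction of group means and is not a like measure. These sets were cut by *Arc* itself after its values were seen, they are not groups of the study, and they narrow the range of every correlated gene. The depth of a library was not tied to the shared level of the 6 members (r = 0.16, rho = 0.26, permutation p = 0.33, and r = 0.16 without the 2 libraries farthest in depth). Each run of 6 consecutive libraries held both low and high rats, with *Arc* medians by run from 35.8 to 59.4 CPM. The lowest *Arc* value in a run lay between 22.9 and 33.3 CPM and the highest between 76.5 and 125 CPM. Time of death, handling before death and RNA quality are not given per sample, and their part in the shared level was not tested.

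The libraries that carried the pattern came from several groups. The mean deviation of the 6 tested members from their group mean was highest in TG_EE replicate 1 (0.88 on the log2 scale), TG_SE replicate 6 (0.87), TG_SE replicate 4 (0.80) and WT_MS replicate 5 (0.59). It was lowest in TG_SE replicate 2 (-0.69), WT_MS replicate 1 (-0.66) and TG_SE replicate 1 (-0.57). TG_SE thus held libraries at both ends.

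**Figure D5:**
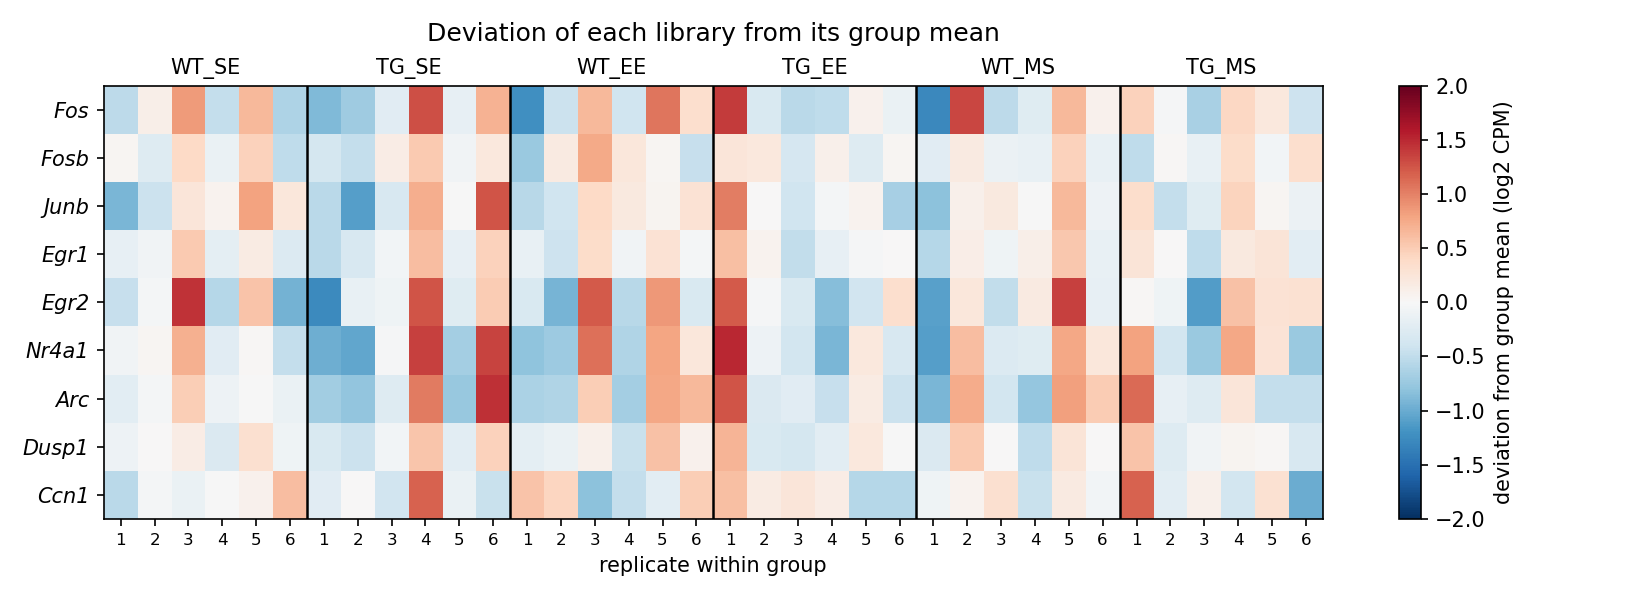
Deviation of each library from its group mean in log2 CPM (colour) for the 9 members (rows) and 36 libraries (columns, by group and replicate). TG_EE replicate 1, TG_SE replicates 4 and 6 and WT_MS replicate 5 are red across most rows, and TG_SE replicate 2 and WT_MS replicate 1 are blue.

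WT and TG libraries with consecutive numbers, 18 pairs each from 1 environment, were also compared. The mean over the 9 members of the correlation between the partners was -0.20, whereas the median over all tested genes was 0.18. By member the correlation ran from -0.37 for *Arc* (rho = -0.31, permutation p = 0.092) to 0.01 for *Ccn1*, and none passed (lowest adjusted permutation p = 0.56 over 9). A level shared by neighbouring libraries was not shown.

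Among the 12651 other genes with a mean count of at least 50, 6 had r over 0.7 to the mean of the standardised deviations of the 6 members, 23 over 0.6, and the median was -0.00. The most alike was ENSRNOG00000014338 (r = 0.89, 38.3 to 108 CPM), followed by ENSRNOG00000007387 (r = 0.82, 33.9 to 73.2 CPM). On the other side 6 genes lay below -0.6, the lowest being ENSRNOG00000000108 (r = -0.64, 16.1 to 30.8 CPM) and ENSRNOG00000043189 (r = -0.62, 24.1 to 34.6 CPM). *Fos*, which did not enter that mean, had r = 0.93 to it, above all of these other genes, and *Egr2* had 0.81, below only the first pair named, whereas *Ccn1* had 0.16.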

How the data were processed

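Polyadenylated RNA of 36 rat striata was sequenced. Per the labels and methods, the authors used FastQC 0.11.4 and STAR 2.5.2b with DESeq2 1.16.1 and aligned to the Ensembl rat genome with human *HTT* added. They deposited raw counts per Ensembl gene. The program that counted reads is not given in the sources used here.

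Groups came from the labels. Counts were fitted by edgeR 4.0.16 under R 4.3.3, with surrogate variables from sva 3.50.0 (TMM, 1 mean per group, 5 surrogate variables, seed 1). Genes with a mean count of at least 50 were tested, with minimums of 10 and none for *Fos*, *Egr2* and *Ccn1*. Other settings were DESeq2 1.42.0, its size factors, 0, 1 or 2 surrogate variables, a covariate for runs of library numbers, no minimum fold change, and each library left out. The labels carry no replicate numbers. Replicates were numbered by library number within a group, so each run of library numbers holds the rats of 1 replicate number, and the covariate for runs is a block on that number. The procedure was tested on simulated counts. Log2 CPM used a prior count of 0.5, and ratios 0.5 added to each count. Precision is given as SDs, standard errors and 95% intervals, and p-values rest on the spread between rats.

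The members and lists were chosen with earlier results of these data known. The rule for named genes was the 9 members, lists of related genes, and the genes most like the members. Without identifiers paired to symbols, the lists and cell type markers were not analysed here, and the most alike genes are given by identifier. The ratios of *Egr2* to *Egr1*, *Fos* and *Nr4a1*, the split by *Arc* and the settings combined with the lower minimums were chosen after seeing the data.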

Additional observations from a re-analysis of the deposited data

Results flagged for a closer look

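In 10 of the 54 combinations of member and group, 1 library stood apart from the other 5 by Dixon's gap test on CPM (linear scale). The test flags about 1 in 20 groups by chance only where values are near normal, which was not checked. The members also share libraries, so the 10 of 54 cannot be set against that rate. TG_EE replicate 1 was highest for *Fos* with 7.96 CPM (others 2.03 to 3.19), *Junb* with 26.2 CPM (8.10 to 13.5), *Nr4a1* with 57.6 CPM (10.7 to 23.5) and *Arc* with 102 CPM (31.1 to 47.9). WT_SE replicate 3 was highest for *Nr4a1* with 32.5 CPM (14.2 to 20.3) and *Arc* with 51.7 CPM (31.7 to 36.4). TG_MS replicate 1 was highest for *Arc* with 89.0 CPM (29.2 to 47.8) and *Dusp1* with 21.8 CPM (11.8 to 15.2). WT_MS replicate 5 was highest for *Egr2* with 14.5 CPM (2.62 to 6.56), and TG_SE replicate 4 for *Ccn1* with 1.58 CPM (0.482 to 0.671). All 10 were the highest library of their group, and whether they stand apart on the log2 scale was not tested. *Egr2* in TG_EE/WT_EE, which did not pass with all libraries (log2 fold change -1.16, edgeR adjusted p = 0.338), ranged from -1.71 to -0.89 with each library left out in turn, with edgeR adjusted p up to 0.526, and passed in 1 of 36 such fits, without TG_EE replicate 1, its group's highest library (-1.71, adjusted p = 0.077).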

How the results depend on the processing

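With a minimum mean count of 50, 0 of 6 members were called in all 13 comparisons under 8 other settings, and 0 with each library left out. With a minimum of 10 or none, 1 member, *Egr2*, was called in TG/WT under each setting run on all 36 libraries. It is tested only at these minimums. With each library left out at a minimum of 10, the call was lost in 22 of 36 fits. Of 29 fold changes followed, 28 kept their direction in every fit. The exception was *Fos* in TG/WT, at 0.026 without surrogate variables, 0.047 with runs as covariate, 0.028 by DESeq2 without surrogate variables and -0.28 to 0.064 with libraries left out (0.064 without WT_MS replicate 2, the cause was not tested). The mean pairwise correlation stayed between 0.65 and 0.71 under the other settings and 0.64 and 0.70 with libraries left out. The mean correlation of consecutive WT and TG libraries stayed between -0.21 and -0.19. The covariate for runs of library numbers, a replicate block on numbers that the labels do not give, changed no call. By the share of counting error in the variance within groups, depth limits *Ccn1* most (89.1%) and *Fosb* next (23.9%). The share was 10.3% for *Fos* and 10.5% for *Egr2*, whose counts lay below the minimum mean of 50. For *Arc* and *Nr4a1* the spread between rats, not depth, sets the width of the intervals.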
